A study of Mus musculus with 11 samples.

Results

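The hippocampus of APP/PS1 mice that had lived with a rotating magnetic field was compared with that of wild-type mice by bulk RNA sequencing, in 8 of the 11 libraries of the study that were used. APP/PS1 mice are transgenic animals in which amyloid plaques build up in the brain with age. The 4 RMF libraries came from APP/PS1 mice exposed to a rotating field of 0.4 T for 12 months, on 5 days of each week. Daily sessions lasted 3 h at an age of 2 to 11 months and 6 h thereafter until 14 months. The 3 sham libraries came from APP/PS1 mice given a sham exposure, and the 4 WT libraries from C57BL/6J mice of the same age, 14 months. No wild-type mice were exposed to the field, so RMF and WT libraries differ in both genotype and field, and the part of each cannot be told apart in this comparison. The labels give no exposure or sham sessions for the WT mice, so these may also differ from both APP/PS1 groups in handling. The labels name neither the APP/PS1 line nor the promoters of its transgenes, and they do not say whether a library is 1 animal. The p-values below therefore rest on the variation among libraries of a group, some of which may be technical.

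Microglia, the resident macrophages of the brain, gather around amyloid plaques and there switch to a state with high expression of lipid-sensing receptors, lysosomal proteases and complement factors. This state depends on TREM2, a surface receptor for lipids, and on its signalling adaptor TYROBP. Astrocytes near plaques enlarge and raise the intermediate filaments GFAP and vimentin. Genes were kept when their deposited FPKM (fragments per kilobase of transcript, scaled to library depth) was at least 1 in at least 3 of the 11 libraries, which left 14428 of 36826 genes. Levels are given as CPM, counts scaled to a common library size, relative to the counts on these genes in the library and the TMM scaling factor, and are compared between libraries, not between genes. Differences were tested with edgeR's quasi-likelihood test, with p-values adjusted by the Benjamini-Hochberg method over all 14428 genes. A gene is described as higher, lower, risen or fallen when its adjusted p was below 0.05.

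The RMF and WT libraries held 68659978 to 70786786 counts each. WT replicate 3 (WT3) stood apart: its median Spearman correlation with the other WT libraries was 0.960, while each of the other RMF and WT libraries had a median of 0.991 to 0.994 with its own group. The label calls the cells neurons, but markers of astrocytes, oligodendrocytes and microglia were measured in every library, as in whole tissue. In WT3 the summed level of 13 dentate granule cell markers was 544 CPM, against 878 to 1105 CPM in the other WT libraries. The sum of 14 neocortex markers was 1083 CPM in WT3 and 540 to 638 CPM in the other WT libraries, and the sum of 11 meningeal and fibroblast markers was 643 CPM in WT3 and 150 to 189 CPM in the others. Within the RMF group, RMF1 had the highest sum of 14 myelinating oligodendrocyte markers, 10959 CPM against 5312 to 6047 CPM in the other RMF libraries. These make-up differences were not tested for their part in the results, and each main result is given with and without WT3.

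In RMF hippocampus 172 of the 14428 genes differed from WT, which is 1.19% of those tested. Of these, 160 were higher (1.11%) and 12 lower (0.0832%), and the RMF and WT values did not overlap in any of the 172. Over all tested genes, 974 (6.75%) had values that did not overlap, 607 with RMF above (4.21%) and 367 with RMF below (2.54%), and 1212 (8.40%) had an unadjusted p below 0.05. The difference was at least 1.5-fold in 142 of the higher and 11 of the lower genes. Of the 160 higher genes, 46 belonged to lists of microglial, complement, antigen presentation, lysosomal or Toll-like receptor genes, and 32 belonged to lists of genes known from other organs. Of the 12 lower genes, 9 were genes of fast skeletal muscle. In all, 73 of the 172 were on none of the 62 lists. The median log2 difference over all genes was -0.001.

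**Figure D1:**
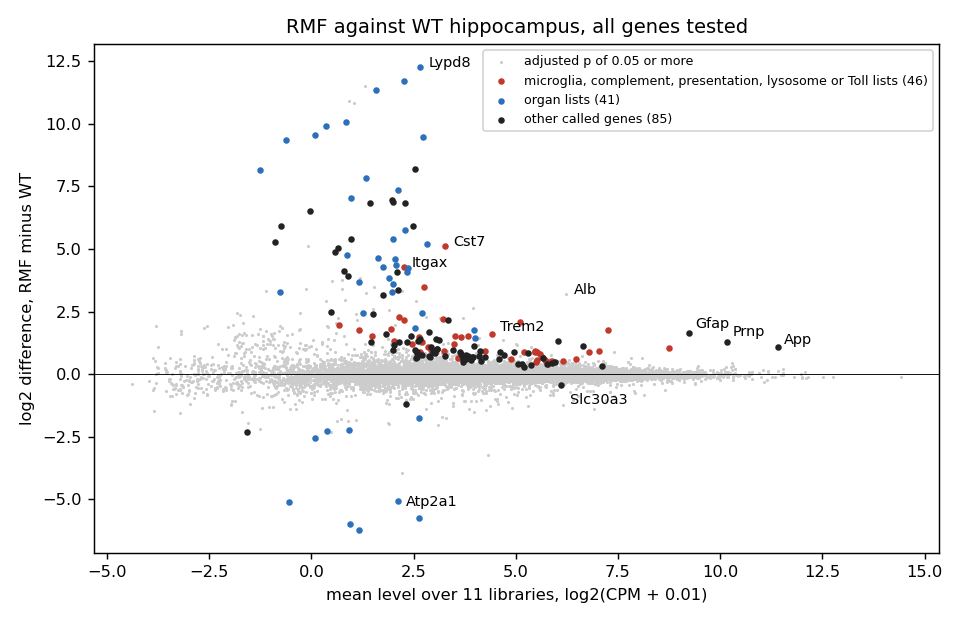
Log2 difference, RMF minus WT, of the 14428 genes against their mean level over the 11 libraries, log2(CPM + 0.01). Each point is a gene; coloured points are the 172 genes with adjusted p below 0.05, by the kind of list they are on, and grey points are the rest. Most called genes lie above 0, and the 12 below it include Atp2a1 and Slc30a3; the called genes with fitted differences above 8 had at most 9 counts over the 4 WT libraries, so these heights are no measure of size.

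Without WT3 the comparison gave 203 genes (1.41%), 190 of them higher (1.32%) and 13 lower (0.0901%), and 1418 genes (9.83%) at an unadjusted p below 0.05. The calls shared 160 genes, which is 93.0% of the calls with all libraries and 78.8% of those without WT3. None of the 172 changed sign. The 12 genes lost were Irf8, Txnip, Plekhf1, Tprn, ENSMUSG00000120992, Lims1, Npc2, Map3k19, Gm6749, Fkbp9, Arhgap45 and Cd63, some of them named after their values were seen. Of the 43 genes gained, 41 were higher and 2 were lower in RMF. In 41 of the 43, WT3 had the highest of the 4 WT values, beside 37.4% of all tested genes. In 26 of the 43, WT3 lay within or above the RMF range. The 43 were selected by leaving out WT3, so these counts largely restate that selection. The median half-width of the 95% interval of the log2 difference was 0.26 without WT3 and 0.28 with it.

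**Figure D2:**
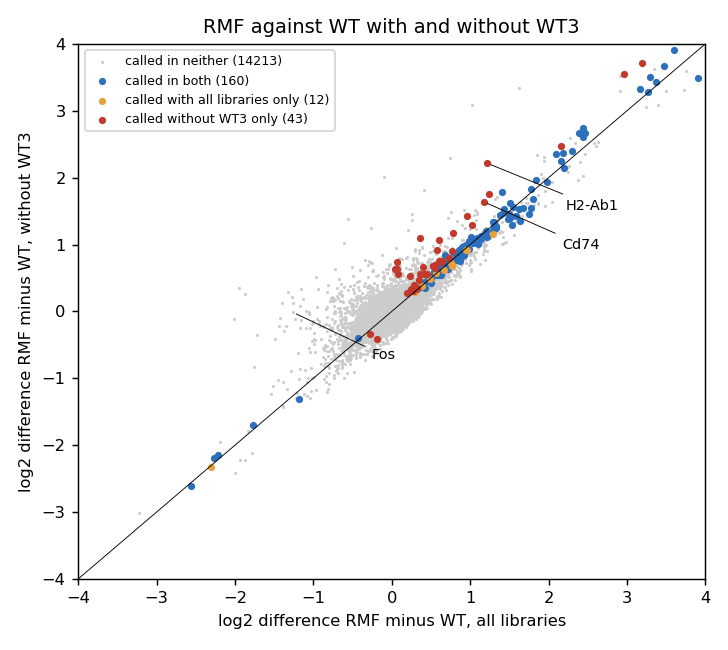
Log2 difference, RMF minus WT, without WT3 (y axis) against that with all libraries (x axis); each point is a gene and the line marks equal values. Points are coloured by whether the gene was called in both comparisons (160), with all libraries only (12) or without WT3 only (43); the 54 genes beyond 4 on either axis are outside the plot. H2-Ab1 and Cd74 lie well above the line, and the log2 difference of Fos is -0.01 without WT3 and -1.26 with it.

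App, the amyloid precursor protein gene on chromosome 16 (ENSMUSG00000022892), had 3199, 3371, 3588 and 3388 CPM in RMF, against 1558, 1602, 1633 and 1577 CPM in WT. The groups were far apart, and the fold difference was 2.13 (log2 1.09, SE 0.08, adjusted p = 7.02e-05). Prnp, the prion protein gene on chromosome 2 (ENSMUSG00000079037), had 1481, 1474, 1554 and 1473 CPM in RMF, against 647, 614, 532 and 661 CPM in WT, a fold difference of 2.44 (log2 1.29, SE 0.09, adjusted p = 4.47e-05). Some APP/PS1 lines use a promoter of the mouse prion protein gene; in the deposited table, reads from a transgene and from the mouse gene cannot be told apart. Lamr1-ps1, a processed pseudogene on chromosome 2, had 7.82, 12.7, 10.6 and 8.81 CPM in RMF, against 0, 0.029, 0 and 0.101 CPM in WT (adjusted p = 4.37e-05). None of 11 secretase genes and none of 11 amyloid clearance genes passed the test, with median log2 differences of 0.04 and 0.12. The paralogs Aplp1 and Aplp2 had log2 differences of -0.05 and 0.07.

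Microglial genes formed a large group. Of 34 listed genes of the plaque-associated state 31 were tested, and of these 18 were higher in RMF and none lower. The median log2 difference was 0.92 beside -0.001 over all genes. Without WT3, 20 were higher and the median was 0.97. Members low in WT, such as Cst7, Itgax and Clec7a, may have passed the filter only through RMF and sham. Their direction is then partly fixed by the filter, and the counts are a description. In this bulk tissue, more cells of a type and more RNA per cell cannot be told apart. For 3 of these genes, the receptor genes Trem2 and Clec7a and the lysosomal gene Cd68, the promoter windows are shown, since they rose together and are all active in microglia. The windows run from 250 bases before to 50 bases after the annotated start and are taken from RefSeq on GRCm38.p6, 5′ to 3′ on the gene's strand. Capitals mark GAGGAA or its reverse complement TTCCTC, the core of sites bound by PU.1, a transcription factor of the macrophage lineage.
Trem2, chr17:48346151-48346450, plus strand: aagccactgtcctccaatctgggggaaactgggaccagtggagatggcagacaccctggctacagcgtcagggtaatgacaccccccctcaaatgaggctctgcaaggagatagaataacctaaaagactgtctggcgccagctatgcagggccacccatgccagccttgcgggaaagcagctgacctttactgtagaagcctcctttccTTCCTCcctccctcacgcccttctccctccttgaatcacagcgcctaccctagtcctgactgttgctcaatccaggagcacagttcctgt
Clec7a, chr6:129472730-129473029, minus strand: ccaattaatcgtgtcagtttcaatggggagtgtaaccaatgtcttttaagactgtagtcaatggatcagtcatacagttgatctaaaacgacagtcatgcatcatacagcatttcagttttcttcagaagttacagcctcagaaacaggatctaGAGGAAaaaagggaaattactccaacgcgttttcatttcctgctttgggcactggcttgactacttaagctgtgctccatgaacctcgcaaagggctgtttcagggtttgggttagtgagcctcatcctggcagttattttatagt
Cd68, chr11:69666121-69666420, minus strand: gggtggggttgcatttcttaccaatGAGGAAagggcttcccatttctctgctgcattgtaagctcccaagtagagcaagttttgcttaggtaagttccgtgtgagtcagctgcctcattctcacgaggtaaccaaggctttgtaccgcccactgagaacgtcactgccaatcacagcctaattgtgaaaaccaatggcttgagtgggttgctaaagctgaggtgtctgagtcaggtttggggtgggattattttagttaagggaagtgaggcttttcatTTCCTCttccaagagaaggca
The motif was searched on both strands and occurs in 28.3% of 32851 promoter windows of this length, and in a window of 8446 of 27025 genes (31.3%). Of the 18 risen genes of the plaque-associated state, 14 had a window and 6 of these held it (42.9%). The 3 windows shown are all among these 6, and none without the motif is shown, so they do not stand for the 14. The match is a description of these letters only.

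Trem2 had 25.9, 32.9, 32.8 and 31.4 CPM in RMF, against 9.68, 11.7, 8.19 and 10.5 CPM in WT. The RMF values lay far above all WT values, and the fold difference was 3.07 (log2 1.62, SE 0.16, adjusted p = 0.000401). Tyrobp, its adaptor, had 14.2, 15.4, 17.3 and 18.2 CPM in RMF and 4.95, 6.88, 5.77 and 4.70 CPM in WT, a fold difference of 2.92 (adjusted p = 0.00137). Clec7a, which encodes the beta-glucan receptor dectin-1, had 10.9, 10.1, 8.92 and 9.59 CPM in RMF, against 1.28, 0.668, 1.24 and 0.374 CPM in WT. The groups were separated by a wide gap, with a fold difference of 11.1 (log2 3.47, SE 0.36, adjusted p = 0.000413). Itgax, the integrin subunit CD11c, had 7.53, 6.83, 9.09 and 6.70 CPM in RMF and 0.305, 0.218, 0.598 and 0.417 CPM in WT, a fold difference of 19.5 (adjusted p = 8.68e-05).

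Cst7, the gene of cystatin F, an inhibitor of cysteine proteases, had 13, 13.8, 18.8 and 19.2 CPM in RMF, against 0.174, 0.189, 1.21 and 0.287 CPM in WT. The WT value of 1.21 CPM is that of WT3, and the fold difference was 34.6 with it (adjusted p = 0.000742) and 74.1 without it (adjusted p = 1.34e-05). Ccl6, a chemokine gene of mice, had 6.94, 6.35, 8.80 and 6.89 CPM in RMF and 1.57, 1.89, 1.88 and 1.12 CPM in WT, a fold difference of 4.49 (adjusted p = 0.000392). Further members, named after their values were seen, were Lyz2 (lysozyme), which averaged 53.9 ± 10.4 CPM in RMF and 12.6 ± 4.78 CPM in WT, and Gpnmb, a transmembrane glycoprotein gene, with 18.8 ± 2.28 CPM in RMF and 6.52 ± 2.64 CPM in WT. The galectin gene Lgals3 averaged 3.58 ± 0.970 CPM in RMF and 1.04 ± 0.468 CPM in WT (SD, n = 4 each). Not every member of the state passed the test. Apoe, the main lipid carrier of the brain, averaged 1350 ± 129 CPM in RMF and 1101 ± 78.8 CPM in WT (fold 1.23, adjusted p = 0.465), and Spp1 (osteopontin) and Ccl3 had log2 differences of -0.33 and -0.25.

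**Figure D3:**
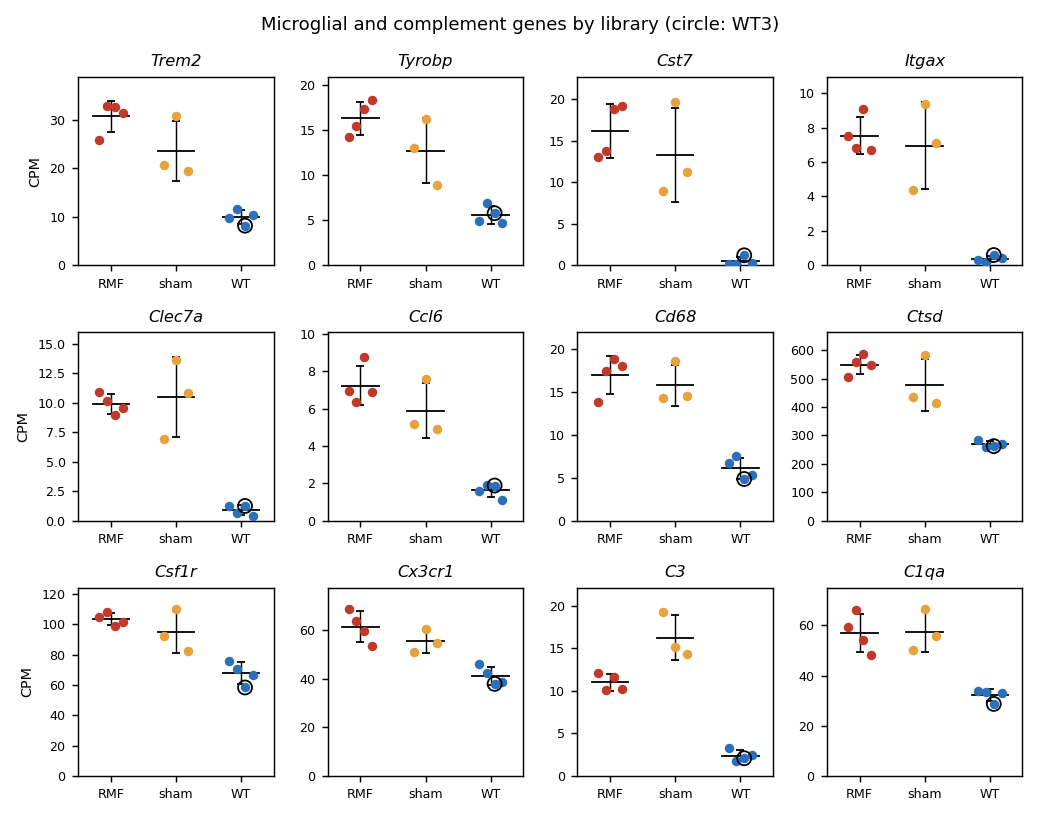
Level in CPM of 12 microglial and complement genes in each library, from left to right RMF (n = 4), sham (n = 3) and WT (n = 4). Points are libraries, long bars are means and error bars are SD; a circle marks WT3. The genes shown were all called, and no called gene overlapped, so in every panel all RMF points lie above all WT points. The sham points fall mostly among or near the RMF points, except for C3, where all 3 lie above them.

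Genes of resting, surveying microglia moved less. Of 16 homeostatic genes 3 were higher and none lower, with a median log2 difference of 0.36 (0.30 without WT3, again with 3 higher). Csf1r, the receptor for the microglial survival factor CSF1, had 105, 108, 99.1 and 102 CPM in RMF and 76.0, 70.4, 58.4 and 66.4 CPM in WT (fold 1.53, adjusted p = 0.0102). Cx3cr1, the fractalkine receptor, had 69.0, 63.9, 59.7 and 53.6 CPM in RMF, against 46.0, 42.3, 37.9 and 38.7 CPM in WT (fold 1.49, adjusted p = 0.0110). The call on Cx3cr1 ended without WT4 (adjusted p = 0.0513). For the purinergic receptor P2ry12 the groups overlapped, with 51.4 ± 6.68 CPM in RMF and 44.8 ± 5.71 CPM in WT (SD, n = 4 each), and a 95% interval of the log2 difference of -0.08 to 0.47. Tmem119, another surveying-state gene, had a log2 difference of 0.29 (adjusted p = 0.50).

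General markers of microglia and macrophages rose in 9 of 14 cases (8 without WT3), with a median log2 difference of 0.87. Their summed level over 15 listed genes was 317 to 380 CPM in RMF, 289 to 388 CPM in sham and 176 to 206 CPM in WT. Fcgr3, a receptor for the constant part of immunoglobulin G, was 1.93-fold higher (adjusted p = 0.000411), and Ptpn6, a phosphatase that restrains immune signalling, was 2.15-fold higher (adjusted p = 0.00367). Irf8, a transcription factor of the myeloid lineage, had 10.4, 9.21, 9.64 and 8.11 CPM in RMF and 5.68, 5.66, 4.40 and 3.53 CPM in WT. Its fold difference of 1.94 (adjusted p = 0.0267) was 1.88 without WT3 (adjusted p = 0.0521), and the call also ended without WT4, RMF1, RMF2 or RMF3 (adjusted p 0.0719 to 0.0903). On no list but among the called genes of smallest p were Mpeg1, a pore-forming gene of macrophages, which was 2.51-fold higher (adjusted p = 0.000122), and Csf3r, the receptor for granulocyte colony-stimulating factor, which was 2.20-fold higher (adjusted p = 0.000341). Of 7 perivascular macrophage markers only Cbr2 passed the filter, and it was not called. Its log2 difference was 2.91 (3.53 without WT3), with every RMF value above every WT value. Cbr2 had 499 counts in RMF and 66 in WT, so it may have passed the filter only through RMF and sham. The untested Mrc1, Lyve1 and Cd163 had 534, 163 and 199 counts in RMF and 562, 171 and 355 in WT. Pf4, F13a1 and Ms4a7 had 52, 658 and 64 counts in RMF and 12, 315 and 38 in WT. The 14 markers of T, B and natural killer cells summed to 3.04 to 7.09 CPM in RMF and 3.20 to 5.43 CPM in sham. In WT they summed to 1.76 to 12.4 CPM, the highest being WT3. Cd8b1, Gzma and Gzmb had 0 counts in all 4 WT libraries, and 35, 33 and 4 counts over the 4 RMF libraries. Cd3d, Cd4 and Trbc2 went the other way, with 8, 110 and 224 counts in RMF and 30, 135 and 830 in WT. The rest had counts in both groups, with more in RMF. The part of T, B and natural killer cells in the microglial results was not tested.

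The Toll-like receptors and cytokine list held 14 tested genes, of which 3 were higher and none lower. Tlr2, a receptor for microbial lipopeptides, had 4.30, 3.57, 3.78 and 4.02 CPM in RMF and 1.73, 1.45, 1.05 and 1.28 CPM in WT (fold 2.84, adjusted p = 0.00169). The endosomal receptors for RNA, Tlr13 and Tlr7, were 2.51-fold (adjusted p = 0.00422) and 2.31-fold (adjusted p = 0.00524) higher. Without WT3 the count was 6, with Tgfb1, its receptor subunit Tgfbr2 and Casp1 added. The phagocyte NADPH oxidase makes superoxide, and its membrane subunit Cybb averaged 6.94 ± 2.76 CPM in RMF and 1.41 ± 0.422 CPM in WT (adjusted p = 0.0190). Its partners Cyba and Ncf1, singled out after their values were seen, were 2.27-fold and 1.82-fold higher (adjusted p = 0.0208 and 0.0336). None of 12 interferon response genes passed the test, although all 12 had fitted means above WT (median log2 0.47).

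Complement genes, from the recognition molecule of the classical pathway to receptors for its products, were also higher. Of 16 tested, 7 were higher and none lower (8 without WT3), with a median log2 difference of 0.59. C3, the protein on which the complement pathways converge, had 12.1, 10.1, 11.6 and 10.2 CPM in RMF, against 3.27, 1.74, 2.06 and 2.47 CPM in WT. The fold difference was 4.61 (log2 2.20, SE 0.19, adjusted p = 0.000173). C3 averaged 16.2 CPM in sham, 11.0 CPM in RMF and 2.39 CPM in WT. The sum of 26 liver genes had the same order, with means of 350, 179 and 18.3 CPM. The part of liver RNA in the C3 values was not tested. C3ar1, the receptor for the C3a fragment, had 5.24, 5.21, 5.39 and 5.06 CPM in RMF and 1.47, 1.57, 1.11 and 1.84 CPM in WT (fold 3.49, adjusted p = 0.000581). The genes of the recognition molecule C1q, C1qa, C1qb and C1qc, were 1.77-fold, 1.92-fold and 1.84-fold higher (adjusted p = 0.00321, 0.00379 and 0.0110). The integrin subunit Itgb2, part of the complement receptor CR3, was 2.31-fold higher (adjusted p = 0.00451), while its partner Itgam had a log2 difference of 0.50 (adjusted p = 0.0970).

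C4b, the gene of complement component 4, had 242, 217, 184 and 201 CPM in RMF, against 93.3, 64.3, 21.3 and 71.7 CPM in WT. Both groups lay apart, and WT3 was the lowest library at 21.3 CPM. With it the fold difference was 3.37 (adjusted p = 0.0342), and without it 2.76 (adjusted p = 0.00144). The call ended when any of the 4 RMF libraries, WT2 or WT4 was left out, with adjusted p between 0.0694 and 0.115. Reads may be split between C4b and its near copy C4a.

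In the lysosome list 13 of 30 genes were higher and none lower (14 higher without WT3), with a median log2 difference of 0.41. Ctsd, the aspartic protease cathepsin D, had 507, 558, 587 and 547 CPM in RMF and 283, 261, 262 and 270 CPM in WT. The fold difference was 2.04 (log2 1.03, SE 0.10, adjusted p = 0.000392), and no RMF value came near the WT range. Cd68, a heavily glycosylated membrane protein of macrophage lysosomes, had 13.8, 17.5, 18.8 and 18 CPM in RMF and 6.71, 7.54, 4.84 and 5.32 CPM in WT (fold 2.79, adjusted p = 0.000737). The cysteine protease Ctss was 1.87-fold higher (adjusted p = 0.00221), the membrane protein Laptm5 1.87-fold (adjusted p = 0.00137), and Grn, which encodes progranulin, 1.45-fold (adjusted p = 0.00137). Among the members that did not pass, Lamp1, Psap, Tpp1 and Neu1, named after their values were seen, had log2 differences of 0.23, 0.02, 0.11 and -0.04. Npc2 and Cd63 were called with all libraries only (adjusted p = 0.0515 and 0.0763 without WT3), and Gusb, Ctsb and Ctsa without WT3 only.

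Among antigen presentation genes, 2 class I genes were called with and without WT3, and further calls appeared without it. H2-K1, a heavy chain of MHC class I, had 30.6, 34.4, 32.1 and 37.0 CPM in RMF and 18.8, 21.1, 24.2 and 23.1 CPM in WT (fold 1.54, adjusted p = 0.00889), and the fold was 1.60 without WT3 (adjusted p = 0.00497). H2-D1 had 58.9, 65.4, 54.8 and 60.4 CPM in RMF and 34.9, 30.6, 49.6 and 35.1 CPM in WT, the 49.6 CPM being WT3; its fold difference was 1.60 (adjusted p = 0.0294) with WT3 and 1.79 (adjusted p = 0.000326) without it. The H2-D1 call ended without any 1 of the other 7 RMF and WT libraries, with adjusted p of 0.0544 to 0.120. Those were the 2 class I genes higher of 9 tested; MHC genes are close copies of each other, so reads may be split between them. B2m, the light chain shared by class I molecules, was 1.37-fold higher with WT3 (adjusted p = 0.104) and 1.47-fold without it (adjusted p = 0.00627).

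None of 5 MHC class II genes was called with all libraries. Cd74, the chaperone called the invariant chain, had 11.4, 7.90, 9.97 and 11.7 CPM in RMF, against 3.44, 4.14, 8.29 and 2.28 CPM in WT. WT3, at 8.29 CPM, lay within the RMF range. The fold difference was 2.26 with WT3 (adjusted p = 0.190) and 3.11 without it (adjusted p = 0.00235). H2-Ab1, a class II beta chain, had 2.86, 2.63, 3.43 and 4.66 CPM in RMF and 0.987, 0.712, 3.65 and 0.489 CPM in WT. Here too WT3, at 3.65 CPM, lay inside the RMF range, and the fold difference was 2.33 with it (adjusted p = 0.578) and 4.65 without it (adjusted p = 0.00434). WT3 was also the WT library with the highest sums of meningeal, endothelial, and T, B and natural killer cell markers. Their part in these values was not tested.

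Reactive astrocyte genes were higher in 6 of 15 cases and lower in none, with or without WT3. The median log2 difference was 0.49 with WT3 and 0.35 without it. Gfap had 823, 878, 785 and 838 CPM in RMF, against 357, 298, 92.1 and 319 CPM in WT. All RMF values lay far above every WT value, and WT3 was lowest at 92.1 CPM. The fold difference was 3.12 with WT3 (log2 1.64, SE 0.33, adjusted p = 0.0349) and 2.56 without it (log2 1.36, SE 0.13, adjusted p = 0.000328). The call with WT3 ended without any RMF library, WT2 or WT4, at adjusted p of 0.0779 to 0.105. Vim, which encodes vimentin, had 60.3, 43.7, 45.8 and 45.7 CPM in RMF and 28.4, 26.1, 27.8 and 27.6 CPM in WT (fold 1.78, adjusted p = 0.00177). Ggta1, a galactosyltransferase, was 2.14-fold higher (adjusted p = 0.00890) and Osmr, the receptor for oncostatin M, 1.98-fold (adjusted p = 0.0138); the Osmr call ended without RMF2 (adjusted p = 0.0532) or WT2 (adjusted p = 0.0576).

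Serpina3n, a protease inhibitor often raised in reactive astrocytes, did not differ beyond the spread, with 62.9, 67.7, 54.3 and 49.6 CPM in RMF and 49.6, 53.2, 8.80 and 55.0 CPM in WT. Without the WT3 value of 8.80 CPM the log2 difference was 0.16 (adjusted p = 0.740), against 0.49 with it (adjusted p = 0.791). None of 14 general astrocyte markers was called with all libraries and 1, the connexin gene Gjb6, was higher without WT3; their median log2 difference was 0.16. None of 14 myelinating oligodendrocyte genes and none of 11 precursor genes passed. Mbp, myelin basic protein, ranged from 2381 to 4778 CPM in RMF and from 1401 to 4310 CPM in WT, with RMF1 the highest RMF library and WT3 the lowest WT library; its log2 difference was 0.21 with WT3 and -0.0044 without it.

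**Figure D4:**
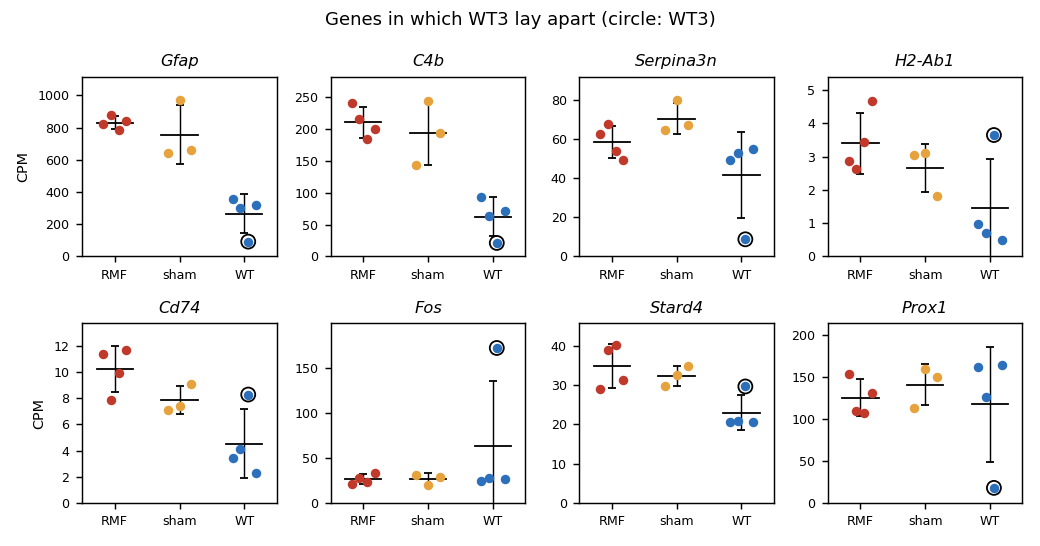
Level in CPM of 8 genes in which WT3 (circled) lay apart from the other WT libraries; points are libraries of RMF (n = 4), sham (n = 3) and WT (n = 4), long bars are means and error bars are SD. WT3 lies below the other WT libraries for Gfap, C4b, Serpina3n and Prox1 and above them for H2-Ab1, Cd74, Fos and Stard4, where it falls within or above the RMF range.

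Few neuronal genes were called. No gene was called among 12 general neuronal, 13 dentate granule cell, 8 CA1, 12 CA2 and CA3, 17 interneuron, 25 glutamate receptor and postsynaptic density, 15 GABA receptor and 24 voltage-gated channel genes, and the medians of these lists lay between -0.03 and 0.20. Without WT3 no member of these lists was called either, but some medians turned. For dentate granule cells the median was -0.16 without WT3 and 0.06 with it, and 2 of 13 genes had fitted means above WT without it, against 8 with it. For CA2 and CA3 it was -0.12 without WT3 and 0.10 with it, and for glutamate receptors and the postsynaptic density -0.13 and -0.03. The remaining medians without WT3 lay between -0.07 and 0.11. Medians hide single genes: within the CA2 and CA3 list the log2 difference reached -2.01. No gene was called either among 20 neuropeptide and granin, 8 adult neurogenesis and 11 neocortex genes. Their fitted means were below WT in 17, 7 and 7 genes. The medians were -0.31, -0.11 and -0.20 with WT3 and -0.07, 0.05 and -0.04 without it. Prox1, the transcription factor of dentate granule cells, had 154, 109, 107 and 131 CPM in RMF and 162, 127, 17.8 and 164 CPM in WT, where the 17.8 CPM is WT3. Calb1, the calcium buffer calbindin, averaged 116 ± 6.95 CPM in RMF and 115 ± 17.6 CPM in WT (SD, n = 4 each), with a 95% interval of the log2 difference of -0.21 to 0.23.

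Among 22 presynaptic vesicle genes the zinc transporter Slc30a3 alone was called, and it was lower. Of the 22, 17 had fitted means below WT, with a median log2 difference of -0.10 (-0.08 without WT3). Slc30a3 loads zinc into the vesicles of glutamate neurons, including the mossy fibres of the dentate gyrus. It had 59.8, 57.3, 60.9 and 68.7 CPM in RMF, against 78.4, 78.3, 89.7 and 86.3 CPM in WT, so that every RMF value lay below every WT value. The log2 difference was -0.43 (SE 0.08, adjusted p = 0.0208) with WT3 and -0.39 (adjusted p = 0.0322) without it. Leaving out RMF1, RMF2, RMF3 or WT4 ended the call, at adjusted p of 0.0758 to 0.0900. The other 13 genes of the zinc transport list were not called. Ift27, an intraflagellar transport gene, had 7.94, 8.66, 7.84 and 7.72 CPM in RMF and 8.99, 8.26, 12.1 and 8.55 CPM in WT, a log2 difference of -0.24 (adjusted p = 0.706). In sham it had 6.22, 5.41 and 4.97 CPM, below every RMF and WT value; its log2 difference of RMF minus sham was 0.54 (unadjusted p = 0.00506, adjusted p = 0.719).

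The immediate early genes, which neurons switch on within minutes of activity, showed how far WT3 alone could set a median. None of the 24 was called with or without it. The median log2 difference was -0.67 with WT3 and -0.11 without it. Fos had 20.6, 27.4, 23.6 and 33.2 CPM in RMF and 24.6, 27.9, 172 and 26.9 CPM in WT, the 172 CPM being WT3. Arc had 178, 240, 172 and 284 CPM in RMF and 214, 278, 750 and 313 CPM in WT, with WT3 again the highest.

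Genes of cholesterol synthesis were few among the calls but even in direction. The pathway runs from acetyl-CoA through mevalonate and squalene to cholesterol. Of 22 tested genes 1 was higher, Sqle (squalene epoxidase), and all 22 had fitted means above WT; the median log2 difference was 0.21. Without WT3, 4 were higher and the median was 0.28. Sqle had 54.1, 64.5, 74.0 and 66.3 CPM in RMF and 44.7, 48.8, 48.3 and 46.8 CPM in WT (fold 1.37, adjusted p = 0.0257). Its call ended without any of RMF2, RMF3, RMF4, WT1, WT2 or WT4, at adjusted p of 0.0667 to 0.0948. Stard4, a carrier of cholesterol between membranes, was 1.68-fold higher without WT3 (adjusted p = 0.00702) and 1.52-fold with it (adjusted p = 0.0985).

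Of 13 genes of brain lipid transport and storage, Plin2, a coat protein of lipid droplets, was the one higher, with 6.72, 7.68, 7.45 and 6.18 CPM in RMF and 4.78, 3.57, 3.40 and 3.74 CPM in WT (fold 1.81, adjusted p = 0.0109). Of 28 antioxidant genes 2 were higher. Gpx3, the secreted glutathione peroxidase made mainly in the kidney, had 14.1, 21.6, 11.0 and 11.6 CPM in RMF and 2.99, 2.67, 4.34 and 2.82 CPM in WT (fold 4.54, adjusted p = 0.000520). Prdx6, a peroxiredoxin, was 1.25-fold higher (adjusted p = 0.0365), a call that ended without any RMF library, WT1, WT2 or WT4 (adjusted p 0.0580 to 0.157). Gstp2, a glutathione transferase on no list, had 2.32, 3.94, 3.06 and 2.67 CPM in RMF and 8.99, 6.68, 4.98 and 6.65 CPM in WT (fold 0.440, adjusted p = 0.0281), and leaving out any of RMF1, RMF3, RMF4, WT1, WT2 or WT4 ended that call (adjusted p 0.0738 to 0.102). No gene was called among 54 nuclear genes of oxidative phosphorylation (median log2 -0.03), 15 mitochondrially encoded genes (-0.10), 34 ribosomal protein genes (0.11), 21 unfolded protein response genes (0.19), 16 heat shock genes (0.08), 18 clock and cryptochrome genes (-0.11), 13 iron genes (0.01), 19 autophagy genes (-0.01) and 17 genes of ion sensing and calcium entry (0.04).

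Of the 8 called genes of smallest p on no list, 4 are known mainly from epithelia or liver. Pigr, the receptor that carries immunoglobulins across epithelia, had 9.26, 7.13, 4.98 and 5.42 CPM in RMF and 0, 0.058, 0.171 and 0 CPM in WT (adjusted p = 0.000241). The epithelial genes Sprr2a1 and Sprr2a2, near-identical copies whose reads may be shared, averaged 5.54 ± 1.49 and 5.65 ± 1.61 CPM in RMF and 0.0433 ± 0.0551 and 0.0469 ± 0.0568 CPM in WT (SD, n = 4 each, adjusted p = 0.000173 for both). Hp, the gene of the plasma protein haptoglobin, had 5.03, 7.51, 7.58 and 6.62 CPM in RMF and 1.07, 0.450, 0.726 and 0.331 CPM in WT (fold 10.3, adjusted p = 0.000408). Every RMF value of these 4 genes lay above every WT value, but none of the 172 called genes overlapped, beside 6.75% of all tested genes without overlap. Pigr, Sprr2a1 and Sprr2a2 were near 0 in WT and may have passed the filter only through RMF and sham. The organ lists do not hold these 4 genes. Among the other unlisted genes, Tent5c, a poly(A) polymerase, was 3.19-fold higher (adjusted p = 0.000223). Sgk1, a kinase induced by glucocorticoids, had 136, 163, 97.2 and 131 CPM in RMF and 57.9, 51.6, 51.7 and 77.7 CPM in WT (fold 2.21, adjusted p = 0.00379). Tsc22d3, another glucocorticoid target, was 1.62-fold higher without WT3 (adjusted p = 0.00702) and 1.46-fold with it (adjusted p = 0.130). Txnip, an inhibitor of thioredoxin, was 1.70-fold higher (adjusted p = 0.0316), a call that ended without any of RMF1, RMF2, RMF4, WT1, WT2 or WT3 (adjusted p 0.0524 to 0.117). Calls on Plekhf1, Tprn, Lims1, Gm6749 and ENSMUSG00000120992 also ended when single libraries were left out.

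Another large group was of genes known mainly from organs other than brain. Of 27 liver genes 19 were higher and none lower (21 without WT3), of 11 large intestine genes 7 were higher, and of 3 lung and airway genes 2 were higher (3 without WT3). These are the tested members of 28 listed liver, 20 intestine and 10 lung genes; with WT near 0, many could pass the filter only through RMF and sham, so their direction is partly fixed by the filter and the counts are a description. The summed level of 26 liver genes was 142 to 270 CPM in RMF, 285 to 468 CPM in sham and 5.04 to 33.8 CPM in WT. For 12 kidney genes it was 23.9 to 46.9 CPM in RMF, 24.3 to 29.5 CPM in sham and 5.95 to 9.28 CPM in WT. For 10 lung and airway genes it was 13.1 to 17.4 CPM in RMF, 12.0 to 25.4 CPM in sham and 0.790 to 1.67 CPM in WT. Both APP/PS1 groups were thus above WT in these sums.

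Alb, serum albumin, had 109, 55.5, 58.3 and 54.7 CPM in RMF, against 4.11, 0.305, 14.5 and 11.5 CPM in WT. It was called without WT3 (fold 13.1, adjusted p = 0.0274) and not with it (fold 9.14, adjusted p = 0.0739). Apoa1, the main protein of high-density lipoprotein, had 8.55, 4.82, 3.69 and 3.52 CPM in RMF and 0.305, 0.131, 0.441 and 0.331 CPM in WT (fold 16.9, adjusted p = 0.000413). Serpina3k was 36.7-fold and Serpina1a 24.6-fold higher (adjusted p = 7.02e-05 and 0.000264); the Serpina1 and major urinary protein (Mup) genes are families of close copies, and their separate counts are uncertain. Lypd8, a protein of the colon lining, had 11.5, 9.17, 6.33 and 8.66 CPM in RMF and 0 counts in all 4 WT libraries. Set against 3 counts over the WT group, it was at least 823-fold higher, and on the same scale Dmbt1, a mucosal scavenger protein, was at least 557-fold and Scgb1a1, the club cell secretoglobin, at least 432-fold higher. Kap, which the kidney tubule expresses under androgen control, had 8.10, 20.0, 8.56 and 9.46 CPM in RMF, against 0, 0, 0 and 0.0575 CPM in WT. Of 20 listed large intestine genes, 11 had 0 counts in all WT libraries, and none had 0 counts over the RMF libraries.

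The reverse was seen for fast skeletal muscle. Of 14 tested muscle genes 9 were lower in RMF and none higher, with or without WT3, and the median log2 difference was -2.29. The list holds 23 genes, and members near 0 in RMF and sham could pass the filter only through WT, so these counts too are a description. Atp2a1, the calcium pump of fast muscle, had 0.263, 0.202, 0.537 and 0.357 CPM in RMF, against 8.91, 12.5, 13.3 and 10.5 CPM in WT (fold 0.0303, log2 -5.05, SE 0.29, adjusted p = 1.42e-05). Ckm, muscle creatine kinase, had 0.0583, 0.101, 0 and 0.157 CPM in RMF and 4.20, 4.82, 6.08 and 5.20 CPM in WT (adjusted p = 0.000223). Acta1, skeletal muscle actin, had 3.37, 2.84, 3.64 and 3.65 CPM in RMF and 9.16, 11.9, 13.1 and 11.9 CPM in WT (fold 0.294, adjusted p = 0.000173). The same genes were low in sham, where Atp2a1 had 0.231, 0.275 and 0.252 CPM. The remaining 6 were Myh4, Tnnt3, Tnnc2, Actn3, Myl1 and Tnni2, and the Tnnc2 call ended without RMF3 (adjusted p = 0.0758).

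Of 10 pericyte and smooth muscle genes 3 were higher: Acta2, Tagln and Myh11, the contractile proteins of smooth muscle, which are also on the gut smooth muscle list. Acta2 had 25.5, 19.7, 18.5 and 19.7 CPM in RMF and 6.62, 5.94, 6.62 and 5.06 CPM in WT (fold 3.44, adjusted p = 0.000223). The pericyte genes Pdgfrb and Rgs5 had log2 differences of -0.07 and -0.04. None of 13 endothelial genes was called. The part of tissue from other organs in these values was not tested. Of the 172 called genes, 131 were on no organ list (159 of 203 without WT3), and these include genes such as Pigr, Sprr2a1, Sprr2a2 and Hp that are known mainly from other organs.

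**Figure D5:**
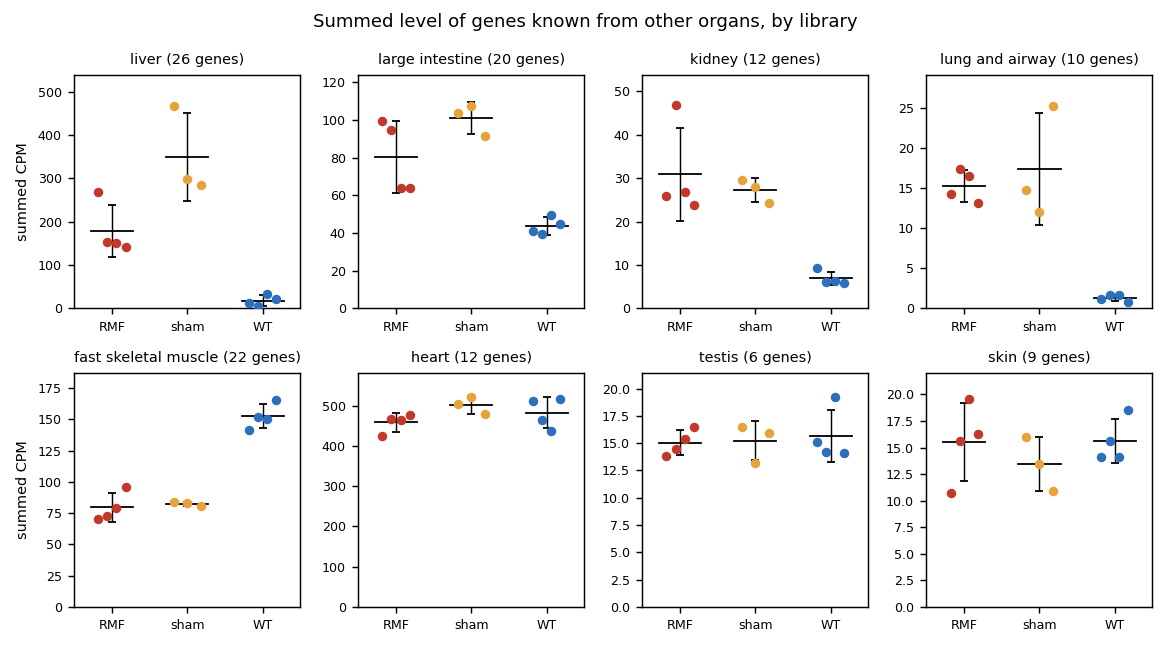
Summed level in CPM of the genes of 8 organ lists in each library, from left to right RMF (n = 4), sham (n = 3) and WT (n = 4); points are libraries, long bars are means and error bars are SD. RMF and sham lie above WT for liver, large intestine, kidney and lung and below WT for fast skeletal muscle, and RMF and WT overlap for heart, testis and skin. The members of highest level in the heart, testis and skin lists were Ryr2, Hspa1l and Sbsn, so these sums say little of the other members. In the skin list Krt14 had 393 counts in RMF and 0 in WT, and Sbsn had 1800 and 2470.

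Since RMF and sham share the genotype, their values for the 172 genes were set beside each other. None of the 172 differed between RMF and sham at an adjusted p below 0.05 (0 of 14428, 0%), the smallest adjusted p being 0.719. At an unadjusted p below 0.05 there were 19 of the 172 (11.0%), beside 994 of all genes (6.89%); in the fit without WT3, 1657 of all genes (11.5%) passed that level between RMF and sham. These 172 were chosen on the same RMF libraries, so this share is a description. The median log2 difference of RMF minus sham over the 172 was 0.05, and the median half-width of its 95% interval was 0.44. These intervals are not adjusted for the number of genes, so the adjusted test needed larger differences. Cd52 at 0.96 and Apoa1 at -1.12 did not pass it (adjusted p = 0.719 for both), so such differences could be missed. Sham minus WT had the same sign as RMF minus WT in all 172 genes. Sham minus WT was itself called in 116, beside 0.929% of all genes (0.846% higher, 0.0832% lower). Both comparisons share the WT libraries, and the 172 were chosen on RMF minus WT, so the agreement is partly built in.

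Of the 19, 13 were higher in RMF than in sham. Cd52, a small surface glycoprotein of immune cells, averaged 2.67 ± 0.549 CPM in RMF (n = 4), 1.37 ± 0.438 CPM in sham (n = 3) and 0.674 ± 0.194 CPM in WT (SD, n = 4), a log2 difference of RMF minus sham of 0.96 (unadjusted p = 0.00777). C3 had a difference of the opposite sign, with 11.0 ± 0.990 CPM in RMF, 16.2 ± 2.64 CPM in sham and 2.39 ± 0.658 CPM in WT, and a log2 difference of RMF minus sham of -0.56 (95% interval -0.99 to -0.13, unadjusted p = 0.0147, adjusted p = 0.719). The 4 liver genes Cyp2e1, Apoa1, Serpina1a and Hpx were among the 6 lower in RMF than in sham, with log2 differences of -0.90 to -1.13. For Trem2 the log2 difference of RMF minus sham was 0.38 (95% interval -0.0028 to 0.75, unadjusted p = 0.0515), with 30.7 ± 3.28 CPM in RMF, 23.7 ± 6.21 CPM in sham and 10.02 ± 1.49 CPM in WT. App differed by -0.01 (95% interval -0.21 to 0.18) and Gfap by 0.14 (-0.62 to 0.90) on the log2 scale.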

How the data were processed

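RNA sequencing of hippocampus was analysed in 4 RMF, 3 sham and 4 WT libraries, grouped by their titles. The authors deposited, per the file headers, 1 table of gene counts and FPKM values for all libraries. The submitters' processing notes name Cutadapt 1.9, HISAT2 2.0.4, StringTie 1.3.4d and edgeR, and name hg38 as genome build, although the gene identifiers are mouse; the build of the table's coordinates is not used here, so only chromosomes are given. Of 24 value columns, 2 matched no sample given and were not used. The labels' protocols mention pooled RNA without saying how many animals a library holds.

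The deposited counts were tested with edgeR 4.0.16 (quasi-likelihood test, TMM factors, R 4.3.3) in 1 fit of the 3 groups over all 11 libraries. Deposited FPKM served as a filter, at least 1 in 3 libraries. SE was taken as the log2 difference over the root of F. Alternatives used DESeq2 1.42.0, limma 3.58.1 on log2(FPKM + 1), voom weights, other filters, a replicate block, and each library left out. The tests were checked on simulated counts.

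The comparison, the lists and the genes were chosen with earlier results of these data known. Named genes were those called with the largest or smallest difference, of smallest p within a list, among genes on no list or among abundant genes, those whose call depended on WT3, and 22 fixed names; others were named after their values were seen. Results of some of these genes are not reported here, although they count in the totals of genes and lists. Where a group had 0 counts, the fold is set against 3 counts over the group. Intervals have a level of 95%. Counts of genes with close copies are uncertain.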

Additional observations from a re-analysis of the deposited data

Results flagged for a closer look

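Among 248 groups of 4 libraries tested with Dixon's criterion, 29 (11.7%) held a library far from its others, 10 of them WT3 and 8 RMF1. The criterion flags about 1 in 20 of independent, normally spread groups, and these groups share libraries. They include genes named because their call depended on WT3. In Kap, Krt19, Mup20 and Zg16, 3 WT libraries were at 0, so a few counts in the other were flagged. The share is therefore a description. No cause was tested.

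In RMF1 the Alb level was 109 CPM against 54.7 to 58.3 CPM in the other RMF libraries, and the liver sum was 270 CPM against 142 to 153 CPM. RMF1 also had the highest Mbp (4778 CPM), Vim (60.3 CPM) and Tprn (21.8 CPM), and the highest sums of markers of myelinating oligodendrocytes (10959 CPM), of oligodendrocyte precursors (693 CPM), and of T, B and natural killer cells (7.09 CPM). In RMF2, Kap was 20.0 CPM, Ptpn6 10.7 CPM and the kidney sum 46.9 CPM, each the highest of its group. In RMF3, Myl1 was 0.748 CPM and Prnp 1554 CPM, each the highest of its group.

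In WT3, Fos was 171.9 CPM against 24.6 to 27.9 CPM in the other WT libraries, and Serpina3n was 8.80 CPM against 49.6 to 55.0 CPM. WT3 had the lowest C1qa (28.7 CPM) and the highest Cst7 (1.21 CPM), H2-Ab1 (3.65 CPM), Stard4 (29.7 CPM) and Krt19 (0.0570 CPM). Its marker sums were the highest for meninges and fibroblasts (643 CPM), for endothelial cells (451 CPM against 331 to 341 CPM), and for T, B and natural killer cells (12.4 CPM). In WT1, Myh4 was lowest at 9.89 CPM, and Mup20 (0.174 CPM), Zg16 (0.0726 CPM) and the kidney sum (9.28 CPM) were highest. Ptpn6 was highest in WT2 (5.23 CPM) and Kap in WT4 (0.0575 CPM).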

How the results depend on the processing

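The count of 172 genes was 315 with DESeq2 (270 higher, 45 lower), 308 with voom weights (270 higher, 38 lower), 354 with no filter (340 higher), 378 with FPKM of at least 0.1 (362 higher), and 112 with a replicate block (103 higher). It was 380 with DESeq2 without WT3 (319 higher, 61 lower), and 260 without WT3 and sham replicate 4 (24 lower). The lower genes were 20 with RMF and WT libraries alone and no WT3, 21 at adjusted p below 0.1, and 3 without organ-list genes. Leaving out 1 library gave 121 to 203 genes, 111 to 190 higher and 9 to 13 lower. The other alternatives stayed within 1.5 times the count; leaving out sham libraries, WT3 with sham replicate 4, or organ-list genes was chosen after seeing the data. Deviations of same-numbered RMF and WT libraries correlated at 0.198 for number 1 and at 0.027, 0.064 and -0.014 for numbers 2 to 4, so the numbers were not taken as pairs.

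Of 95 named genes, 80 were called, and 63 of these were called with each RMF and WT library left out. Over all alternatives, 1872 values of named genes kept direction and side of the threshold, 37 passed it newly, 165 no longer passed it and 16 changed sign, all in 3 genes that were not called. The log2 differences of Mbp and Prox1 were -0.058 and -0.217 with voom weights, -0.0051 and -0.266 with RMF and WT libraries alone and no WT3, -0.0074 and -0.269 with DESeq2 and no WT3, and -0.0042 and -0.267 without WT3 and sham replicate 4. With 1 library left out they ranged from -0.090 to 0.54 for Mbp, -0.266 to 0.29 for Prox1 and -0.054 to 0.12 for Calb1. The cause was not tested. Depth was even among libraries, and the spread between them set the precision.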

Other observations

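Relative transcript length was taken from the ratio of counts to FPKM. Across the 14428 genes, the Spearman correlation of the log2 difference with this length was 0.101 for RMF minus WT and -0.004 without WT3. It was -0.201 for RMF minus sham and 0.236 for sham minus WT. The mitochondrially encoded share of counts was 5.92% to 6.55% in RMF, 5.93% to 9.53% in sham and 5.76% to 7.39% in WT. These values are a description over genes that share libraries.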
